A study of Rattus norvegicus with 56 samples.

Results

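The mitochondrial ribosomal proteins are the nuclear-encoded proteins of the ribosome that works inside mitochondria. They were taken as every gene whose symbol in the 30 min table begins with Mrpl or Mrps followed by a number, and were carried to the 3 h table by Ensembl identifier. This gave 76 genes of the 32883 identifiers in each table, 46 with Mrpl symbols and 30 with Mrps symbols. The RNA came from microdissected tubule segments of male rats of the Sprague Dawley strain, with no age given, whose left ureter had been tied close to the renal pelvis (unilateral ureteral obstruction, UUO) or handled under the same anaesthesia and surgery without a ligature (sham). One segment was the collecting duct of the cortex (CCD, cortical collecting duct) and the other the thick ascending limb of the cortex (cTAL), from UUO and from sham rats after 30 min and after 3 h. This makes 8 groups of 4 numbered replicates, where a CCD number has 2 libraries and a cTAL number has 1, 48 libraries in all. The labels do not say which numbers share a rat, so p-values measure the spread between numbered samples. The question put to the family was whether a fall of Mrpl36 in cTAL after obstruction was shared by its other members.

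Mitochondrial ribosomes translate the small set of messages encoded by mitochondrial DNA, all of which specify subunits of the respiratory chain and ATP synthase. Their RNA is made inside the organelle, whereas every one of their proteins is encoded in the nucleus, made in the cytosol and imported. The large subunit (Mrpl) holds the site where peptide bonds form, and the small subunit (Mrps) reads the message. Many of the proteins belong to families shared with bacteria, and others exist only in mitochondria. The thick ascending limb is among the tubule segments richest in mitochondria, because salt transport there needs much ATP.

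All values are TPM, a level per gene corrected for transcript length and scaled to a fixed total per library. Since TPM hold no record of sequencing depth, no detection limit can be stated. The value of a CCD replicate is the mean of its 2 libraries. Changes are log2 differences on the log2(TPM + 1) scale with their standard error (SE), tested with limma over the genes that reached 1 TPM in 4 or more replicates of the comparison. A gene is called where its Benjamini-Hochberg adjusted p, over all genes tested, is under 0.05. Levels are not compared between the 30 min and 3 h tables, which were made separately. In bulk RNA from dissected tubules, fewer cells of a type and less RNA per cell cannot be told apart.

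Libraries held 8744 to 11916 genes at 1 TPM or more at 30 min and 9585 to 10750 at 3 h, and 74 to 76 of the 76 members reached that level. The segment labels held at 30 min. Aqp2, the water channel of collecting duct principal cells, stood at 890 to 5745 TPM in CCD libraries and 0.11 to 15.4 TPM in cTAL libraries. Umod, the uromodulin gene of the thick ascending limb, stood at 36458 to 66397 TPM in cTAL libraries. At 3 h Umod reached 7957 TPM in CCD sham and 18235 TPM in CCD UUO libraries, and replicate 1 of cTAL sham held 361 TPM of Aqp2. The cTAL libraries at 3 h held 33550 to 58425 TPM of Umod in sham and 28439 to 33411 TPM in UUO. In CCD UUO at 30 min the median change of all genes tested was -0.31, while mitochondrially encoded genes took a median of 20% of TPM, against 14.7% in sham.

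In sham kidneys nearly the whole family was expressed in both segments, with 75 of 76 members at a mean of 1 TPM or more in every sham group. The level of the median member was 109 TPM (CCD) and 85.0 TPM (cTAL) at 30 min, and 142 TPM (CCD) and 152 TPM (cTAL) at 3 h. Mrpl54, a protein found only in mitochondria, led in CCD with 313 ± 19.6 TPM at 30 min and 502 ± 25.9 TPM at 3 h (SD, n = 4). Mrpl15, the counterpart of a bacterial large subunit protein, came next with 287 ± 23.4 TPM and 454 ± 24.8 TPM. Also among the 4 highest in CCD were Mrpl17 at 279 TPM and Mrps36 at 275 TPM at 30 min, and Mrps21 at 443 TPM and Mrps12 at 413 TPM at 3 h. Mrps36 carries a ribosomal name but is now known as a component of the 2-oxoglutarate dehydrogenase complex. In cTAL the order was headed by Mrps6, a small subunit protein, with 945 ± 155 TPM at 30 min and 998 ± 105 TPM at 3 h, far above the next member in both tables. After it came Mrpl15 at 354 TPM, Mrpl36 at 336 TPM and Mrps36 at 327 TPM at 30 min, and Mrps16 at 535 TPM, Mrpl42 at 533 TPM and Mrpl15 at 533 TPM at 3 h. The lowest members tested after UUO were Mrpl1 at 7.75 TPM and Mrps10 at 8.36 TPM in CCD at 30 min, with 7.06 TPM and 7.34 TPM in cTAL. At 3 h they were Mrpl1 at 9.33 TPM and Mrps2 at 11.1 TPM in CCD, and Mrpl1 at 10.0 TPM and Mrpl51 at 10.1 TPM in cTAL. Mrps10 stood lower still at 3 h, at 1.68 TPM in CCD sham and 1.01 TPM in cTAL sham; it was tested there between sham segments but was below the filter in both UUO comparisons. Mrps21l stayed below the filter in every comparison.

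In sham kidneys 3 members differed more than 3-fold between the segments in both tables: Mrpl36 and Mrps6 were higher in cTAL, and Mrps24 was higher in CCD. Mrpl36, the mitochondrial form of a small zinc-binding protein of the large subunit, stood at 91.2 to 98.7 TPM in the CCD sham replicates and 298 to 413 TPM in the cTAL sham replicates at 30 min. At 3 h it stood at 134 to 156 TPM in CCD sham and 449 to 595 TPM in cTAL sham, again without overlap. The CCD minus cTAL difference within sham numbers was -1.81 (SE 0.10, limma adjusted p = 1.8e-05) at 30 min and -1.85 (SE 0.09, limma adjusted p = 8.2e-05) at 3 h. Mrps6 differed by -1.99 (SE 0.11) at 30 min, with 204 to 282 TPM in CCD and 723 to 1062 TPM in cTAL, and by -1.83 (SE 0.15) at 3 h. The gene Slc5a3, an inositol transporter, overlaps Mrps6 by 2447 bases in the RefSeq gene table of build GRCr8, so the reads of both genes may not be told apart and the Mrps6 level is uncertain. In the other direction Mrps24, the mitochondrial form of a small subunit protein at the entry of the message, was higher in CCD by 2.61 (SE 0.21) at 30 min, with 101 to 138 TPM against 8.12 to 28.1 TPM, and by 1.83 (SE 0.50) at 3 h. The 4 cTAL sham values of Mrps24 ranged widely at 3 h too, from 7.05 to 83.1 TPM. Mrps12, a protein of the decoding centre, was higher in CCD by 0.86 (SE 0.08) and 0.59 (SE 0.07). Its level is uncertain too, since it shares 2999 bases with the protein-coding LOC103689966, and 16 members in all overlap a protein-coding gene in that table. Mrps34 was higher in CCD by 1.28 (SE 0.18) at 30 min. Mrpl42 and Mrpl48, both large subunit proteins found only in mitochondria, were lower in CCD at 3 h, with differences of -0.62 (SE 0.07) and -0.51 (SE 0.09).

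Across the family, limma found 12 of 75 members above and 12 below cTAL in CCD sham at 30 min, beside 41.7% of all genes tested higher and 13.2% lower. At 3 h it called 2 of 75 higher and 18 lower, beside 27.7% and 10.4% of all genes. The median member difference was 0.02 at 30 min and -0.10 at 3 h, where all genes tested had 0.30 at both times. The split depended on the scaling: with median-of-ratios size factors, which set the typical gene near 0, 5 members lay above and 38 below cTAL at 30 min, against 0 and 45 in the 3 h table, while quantile normalization gave 5 and 42, then 2 and 41. The differences of Mrpl36 and Mrps6 were called in all planned settings and in every fit without 1 number, at both times.

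**Figure D1:**
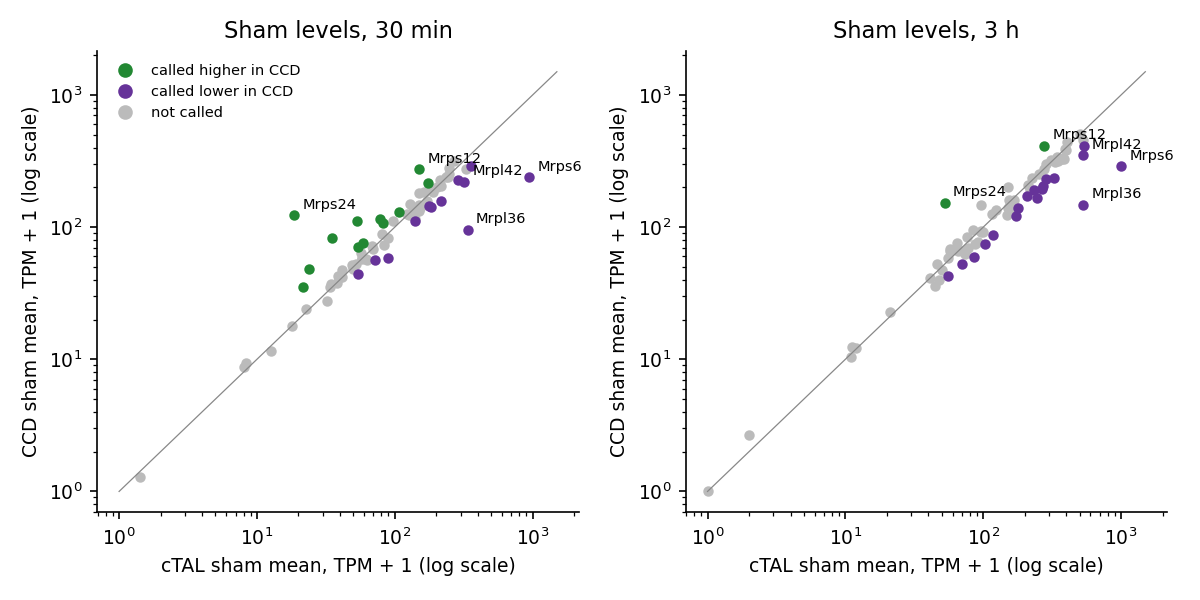
Mean sham level of each of the 76 members in CCD (vertical) against cTAL (horizontal), TPM + 1 on log axes, at 30 min and 3 h, n = 4 replicates per segment. Points below the diagonal are higher in cTAL: Mrps6 and Mrpl36 lie farthest below it in both panels, and Mrps24 lies above it.

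At 30 min after ligation no member was called in either segment. In CCD 0 of 75 members were called, where 0.0088% of all genes tested were higher and 0.0176% lower, and 0 members had an unadjusted p under 0.05. The median change was -0.03, and 42 of 75 members (56%) were below 0, where all genes had a median of -0.31 with 86.3% below 0. The sign of that member median depends on the scaling, as the closing section gives. For 5 members the highest UUO replicate was below the lowest sham replicate, against 10.4% of all genes. The 4 members with the smallest p were Mrpl49, Mrps24, Mrpl38 and Mrps30, with limma adjusted p from 0.32 to 0.34.

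Mrps24 in CCD at 30 min had 101, 112, 135 and 138 TPM in sham and 9.03, 41.3, 54.7 and 109 TPM in UUO, so that the arms overlapped; it was called when the first library of each number was used alone (limma adjusted p = 0.031). Mrps30, which despite its symbol sits in the large subunit, had 42.1, 43.7, 50.8 and 50.9 TPM in sham and 6.56, 23.4, 40.2 and 40.4 TPM in UUO. The arms of Mrps30 did not overlap, and in both genes the UUO replicates spread widely, with replicate 1 lowest. Mrpl49, a large subunit protein found only in mitochondria, had 51.9 ± 5.53 TPM in sham and 40.4 ± 4.70 TPM in UUO, and Mrpl38 had 40.7 ± 1.88 and 32.1 ± 6.30 TPM (SD, n = 4).

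In cTAL at 30 min 0 of 75 members were called, beside 0.0091% of all genes higher and 0% lower, and 2 members had an unadjusted p under 0.05. The median change was -0.09 with 67 of 75 members below 0, where all genes had -0.07 with 65.9% below 0. In 4 members the UUO replicates all lay below sham, against 1.4% of all genes. Mrpl47 had 15.2, 15.8, 17.8 and 18.9 TPM in sham and 9.32, 10.3, 14.7 and 14.4 TPM in UUO. Mrpl33 had 126 to 140 TPM in sham and 145, 56.7, 90.4 and 30.5 TPM in UUO, a spread within the UUO arm wider than the difference. Mrpl19 had a change of -0.27 (SE 0.12) and Mrpl49 one of -0.32 (SE 0.15), and the limma adjusted p was 1.00 for all 4.

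Mrpl36 was not called in either segment at 30 min, and at 3 h it was much lower in UUO in cTAL and less so in CCD. In cTAL at 30 min it had 305, 330, 298 and 413 TPM in sham and 333, 373, 379 and 330 TPM in UUO, with overlapping arms and a change of 0.08 (SE 0.12, limma adjusted p = 1.00). In cTAL at 3 h it had 587, 491, 449 and 595 TPM in sham replicates 1 to 4 and 172, 162, 186 and 196 TPM in UUO replicates 1 to 4. Every UUO replicate lay far below the lowest sham replicate, with means of 530 ± 72.1 TPM in sham and 179 ± 15.2 TPM in UUO (SD, n = 4). The change was -1.56 (SE 0.13, limma adjusted p = 0.00023), a 2.94-fold fall. An exact two-sided permutation test of the mean log2 value gave p = 0.0286, the smallest that 4 against 4 can give. Arms without overlap always give this value, so it adds nothing to the separation of the arms.

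In CCD the same gene fell less. At 30 min it had 95.0, 98.7, 91.2 and 93.5 TPM in sham and 101, 115, 112 and 90.3 TPM in UUO, a change of 0.14 (SE 0.14, limma adjusted p = 0.55). At 3 h it had 156, 134, 149 and 148 TPM in sham and 120, 113, 104 and 113 TPM in UUO, without overlap. The change of -0.38 (SE 0.09, limma adjusted p = 0.025) is a 1.31-fold fall. The exact two-sided permutation test gave p = 0.0286 here too, the value that arms without overlap always give. That call in CCD was lost with median-of-ratios scaling (-0.24, limma adjusted p = 0.14), with the replicate number as a block (limma adjusted p = 0.065), with either library of a number alone, without CCD libraries above 5000 TPM of Umod (limma adjusted p = 0.083) and in 5 of 8 fits that left out 1 replicate (sham 1, 2, 3 or 4, or UUO 2). The difference between the segments was called in its own test: the UUO change in CCD minus that in cTAL was 1.17 at 3 h (SE 0.14, limma adjusted p = 0.0079) and 0.05 at 30 min (SE 0.14, limma adjusted p = 0.88). After UUO the cTAL replicates, at 162 to 196 TPM, lay just above the CCD sham range of 134 to 156 TPM.

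**Figure D2:**
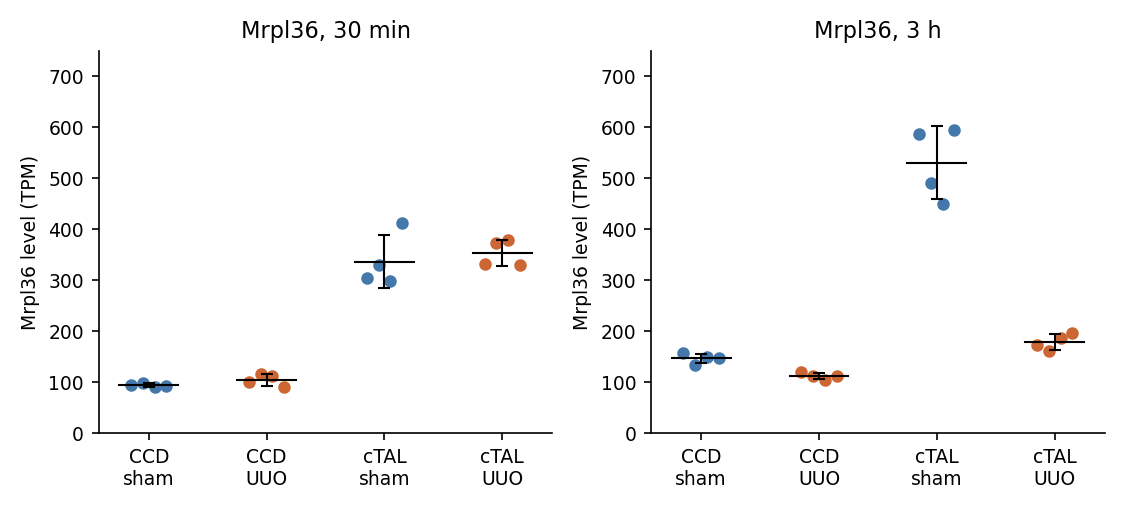
Mrpl36 level in TPM for each replicate (points), with the mean and SD (bars) of 4 replicates per group, at 30 min and at 3 h. The cTAL UUO replicates at 3 h sit between 162 and 196 TPM, all below the cTAL sham replicates at 449 to 595 TPM.

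The name Mrpl36 belongs to different identifiers in the 2 tables. The identifier called Mrpl36 at 30 min, ENSRNOG00000023407, is called LOC100910528 at 3 h, while ENSRNOG00000047971 carries the names the other way round, so the 2 loci may share reads and their split is uncertain. The second locus was at 0 to 94.0 TPM in cTAL sham and 15.2 to 66.3 TPM in cTAL UUO at 3 h. With both loci added, a setting chosen after seeing the data, cTAL at 3 h had 485 to 681 TPM in sham and 177 to 263 TPM in UUO, a change of -1.35 (limma adjusted p = 0.0012). At 30 min the summed change in cTAL was -0.0796 (limma adjusted p = 1.00), opposite in sign to the 0.08 of the single locus, and neither was called. The summed change in CCD at 3 h was -0.31 (limma adjusted p = 0.11) and was not called. The summed difference between segments at 3 h was 1.04 (limma adjusted p = 0.018). Ndufs6, a subunit of respiratory complex I, has the start nearest to that of Mrpl36 in the RefSeq table, 2279 bases away. The start used for Mrpl36 lies inside its annotated gene, and the spans of the 2 genes overlap by 47 bases. Ndufs6 was listed at 0 in 34 of 48 libraries and reached at most 3.80 TPM, so it gave no comparison.

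The fall of Mrpl36 in cTAL at 3 h was shared in direction by most of the family but not in size. Of the 74 members tested, 12 were called lower and 0 higher, that is Mrpl36 and 11 others, beside 7.64% of all genes lower and 4.06% higher. The median change of the members was -0.26, and -0.26 without Mrpl36, with 62 of 74 members (83.8%) below 0, while all genes tested had a median of -0.12 with 59.8% below 0. With median-of-ratios scaling the member median was -0.11, with 55 of 74 below 0, and that of all genes 0.01. For 21 members the arms did not overlap and UUO was the lower one, against 14.1% of all genes, and for 1 member, Mrpl47, UUO was the higher one, against 5.68% of all genes. Mrpl47 is named here because it was alone on that side, with 19.9 ± 1.65 TPM in sham and 26.8 ± 4.31 TPM in UUO (SD, n = 4), and was not called (limma adjusted p = 0.19). Its level is uncertain, since its annotated span shares 560 bases with Actl6a and 186 bases with Ndufb5, both protein-coding. The next lowest change after the -1.56 of Mrpl36 was the -0.98 of Mrpl2.

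Mrpl2, a core protein next to the site of peptide bond formation, fell 1.97-fold in cTAL at 3 h (SE 0.16, limma adjusted p = 0.0071). Its replicates had 84.0, 110, 91.8 and 125 TPM in sham and 56.2, 55.3, 47.3 and 46.3 TPM in UUO. Mrpl34, the counterpart of one of the smallest bacterial ribosomal proteins, had 474, 378, 398 and 344 TPM in sham and 265, 188, 184 and 239 TPM in UUO, a change of -0.87 (SE 0.15, limma adjusted p = 0.0087). Mrpl18, whose bacterial relative binds 5S RNA, had 215, 226, 233 and 250 TPM in sham and 144, 120, 154 and 143 TPM in UUO, a change of -0.72 (SE 0.12, limma adjusted p = 0.0068). The arms of these 3 genes did not overlap, and their calls, like that of Mrpl36, held in all 6 planned settings and all 8 fits without 1 replicate.

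Mrpl57, found only in mitochondria, had 347, 342, 327 and 313 TPM in sham and 254, 201, 202 and 198 TPM in UUO, a change of -0.64 (SE 0.11, limma adjusted p = 0.0093). Mrpl39, which resembles a tRNA synthetase, had 50.2, 54.1, 47.5 and 45.6 TPM in sham and 32.8, 25.1, 24.3 and 28.4 TPM in UUO, a change of -0.82 (SE 0.16, limma adjusted p = 0.014). For both genes every UUO replicate was below sham. The call of Mrpl57 was lost only with median-of-ratios scaling (limma adjusted p = 0.053), and that of Mrpl39 only without sham replicate 2 (limma adjusted p = 0.052).

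The remaining 6 called members changed less and lost their calls more often. Mrps11, the only small subunit member called in cTAL and part of the platform of that subunit, fell by 0.56 on the log2 scale from 148 ± 11.5 to 100.1 ± 10.5 TPM (SD, n = 4). The other 5 were Mrpl42 (-0.46), Mrpl13 (-0.42), Mrpl38 (-0.51), Mrpl20 (-0.44) and Mrpl46 (-0.57), all large subunit proteins, with limma adjusted p from 0.024 to 0.049. Mrpl46 was the one called member whose arms overlapped, at 71.8 to 103 TPM in sham and 52.5 to 71.9 TPM in UUO. None of these 6 was called with median-of-ratios scaling or with the replicate block, and each lost its call in 4 to 7 of the 8 fits without 1 replicate. The count of 12 members called became 5 with median-of-ratios scaling, 6 with the replicate block, and 7, 5, 7 and 7 without sham replicates 1, 2, 3 and 4.

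**Figure D3:**
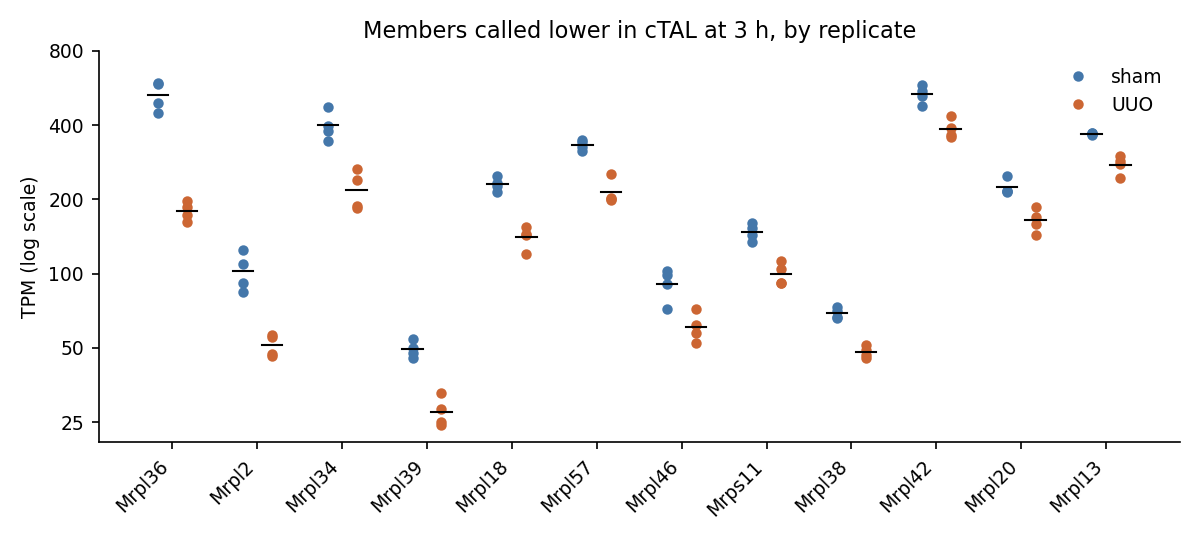
TPM (log axis) of the 12 members called lower in cTAL at 3 h, ordered by change, with 1 point per replicate and bars at the mean of 4 sham and 4 UUO replicates. Mrpl36 has the widest gap between arms, 530 against 179 TPM, and only Mrpl46 has arms that overlap.

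In CCD at 3 h 9 of 74 members were called lower and 0 higher, beside 8.04% of all genes lower and 5% higher. The median change was -0.18 with 64 of 74 members (86.5%) below 0, where all genes tested had -0.14 with 64.8% below 0. With median-of-ratios scaling the member median was -0.0305, with 43 of 74 below 0, and that of all genes -0.01. For 28 members the arms did not overlap and UUO was the lower one, against 15% of all genes. The 9 members were Mrps16, Mrpl34, Mrpl18, Mrpl40, Mrpl36, Mrpl13, Mrps22, Mrpl57 and Mrpl49. The count was 3 with median-of-ratios scaling, 3 with the replicate block, 4 from the first library of each number alone and 5 from the second alone. It was 4 without sham replicate 1 or 3, and 3 without sham replicate 2, sham replicate 4 or UUO replicate 2.

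Mrps16, a small subunit protein shared with bacteria, had 413, 409, 421 and 408 TPM in CCD sham and 302, 296, 318 and 312 TPM in CCD UUO at 3 h. The arms lay well apart and the replicates close together, with a change of -0.43 (SE 0.07, limma adjusted p = 0.0093). Mrpl34 had 410, 381, 354 and 388 TPM in sham and 293, 256, 232 and 225 TPM in UUO, a change of -0.61 (SE 0.10, limma adjusted p = 0.0098). Mrpl18 had 183, 188, 198 and 195 TPM in sham and 153, 133, 132 and 126 TPM in UUO, a change of -0.49 (SE 0.09, limma adjusted p = 0.012). Mrpl34 and Mrpl18 were called in all 9 planned settings and all 8 fits without 1 replicate, whereas Mrps16 lost its call with median-of-ratios scaling (limma adjusted p = 0.056).

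The others had smaller margins, with adjusted p from 0.025 to 0.046 by limma. Mrpl40 fell from 39.0 ± 2.05 to 25.9 ± 3.94 TPM, Mrpl49 from 94.2 ± 6.87 to 68.1 ± 12.6 TPM, and Mrps22, a small subunit protein found only in mitochondria, from 68.0 ± 6.97 to 48.1 ± 6.68 TPM (SD, n = 4). Mrpl13 fell from 328 ± 16.4 to 261 ± 14.2 TPM and Mrpl57 from 311 ± 9.73 to 247 ± 26.1 TPM. These 5, like Mrpl36, were lost with the block and in 5 to 7 of the 8 fits without 1 replicate.

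**Figure D4:**
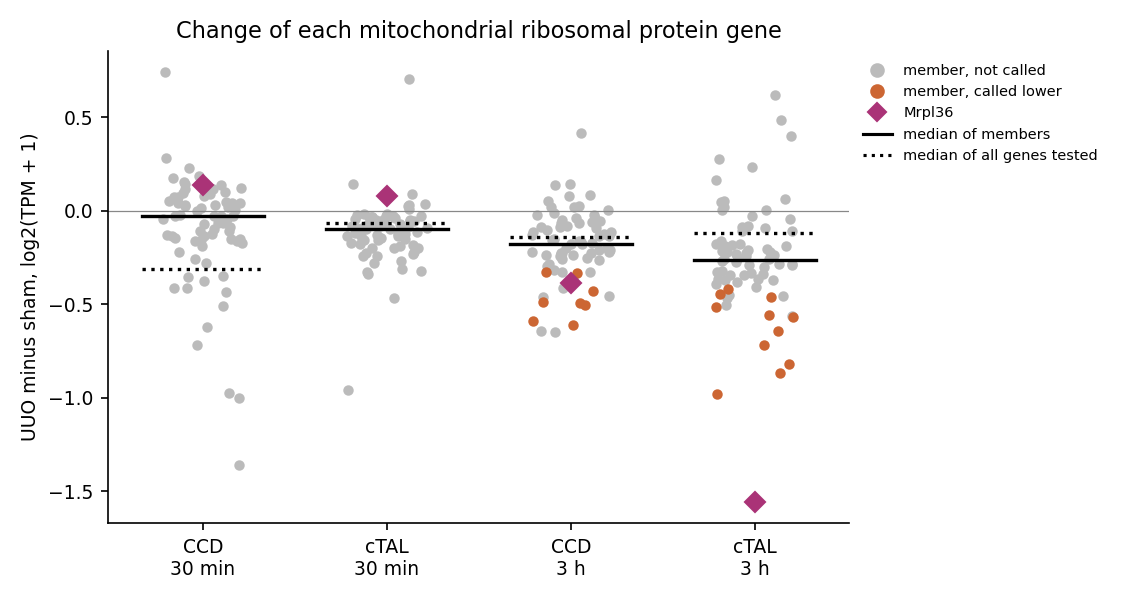
Log2 change of each tested member (points) after UUO in the 4 comparisons, on the log2(TPM + 1) scale, 75 members at 30 min and 74 at 3 h, with the median of members (solid line) and of all genes tested (dotted line). At 3 h no called member lies above 0, and Mrpl36 (diamond) in cTAL, at -1.56, lies apart from the rest, the next being Mrpl2 at -0.98.

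Of the 16 members called at 3 h in either segment, 5 were called in both, Mrpl36, Mrpl18, Mrpl34, Mrpl13 and Mrpl57, which is 55.6% of the CCD list and 41.7% of the cTAL list. Over all genes, 251 were called lower in both segments, 29.6% of the 847 called lower in CCD and 32.8% of the 766 in cTAL; the difference from the members was not tested. Another 7 were called in cTAL alone and 4 in CCD alone, but being called in 1 segment does not show a difference between segments. When that difference was tested at 3 h, 1 of 74 members was called, Mrpl36, beside 0.593% of all genes higher. At 30 min 0 of 75 members and 0% of all genes were called in this test. When the change at 3 h was set against that at 30 min, 3 of 75 members were called lower in cTAL, beside 1.47% of all genes: Mrpl36 by -1.64 (SE 0.17, limma adjusted p = 0.00024), Mrps11 by -0.65 (SE 0.15, limma adjusted p = 0.031) and Mrpl2 by -0.95 (SE 0.22, limma adjusted p = 0.034). The last 2 were lost with median-of-ratios scaling, quantile normalization and the replicate block, Mrpl36 in none of the planned settings. Mrpl36 was the only member called without sham replicate 1 or 3 or UUO replicate 3 at 30 min, or without sham replicate 2 or UUO replicate 3 at 3 h, whereas 5 were called without UUO replicate 1 at 3 h. In CCD 0 of 75 members were called in the test between times, beside 1.49% of all genes in either direction, and Mrpl36 had -0.52 (SE 0.15, limma adjusted p = 0.11).

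**Figure D5:**
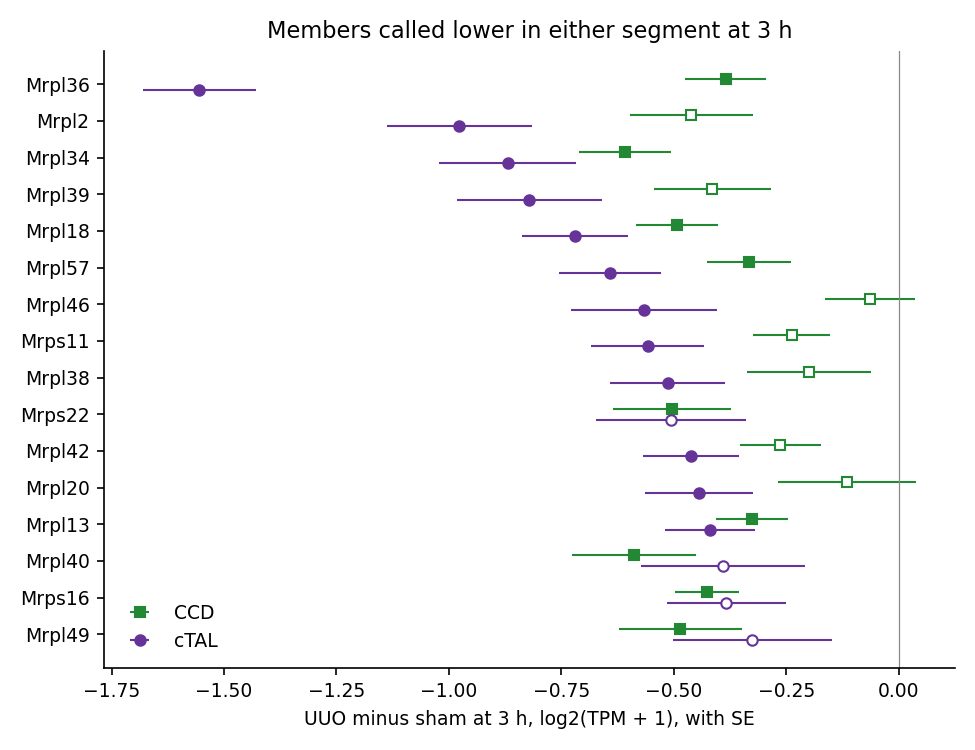
Log2 change at 3 h (UUO minus sham, log2(TPM + 1), bars are the SE) of the 16 members called lower in either segment, CCD as squares and cTAL as circles, filled where called. The CCD and cTAL values of Mrpl36, -0.38 and -1.56, lie farthest apart.

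The summed level of the family gives the same comparison as a share of each library. The sums were not rescaled, and the median change of all genes tested was also below 0 in both segments at 3 h. In cTAL at 3 h the 76 members together held 14200 to 16195 TPM in sham and 12420 to 13179 TPM in UUO, without overlap. With Mrpl36 left out the ranges were 13605 to 15607 TPM and 12258 to 13006 TPM, so the sums of the other members did not overlap either. In CCD at 3 h the sums were 12580 to 13293 TPM in sham and 11235 to 12093 TPM in UUO. At 30 min the arms overlapped, with 8528 to 9047 TPM against 8248 to 9873 TPM in CCD and 8785 to 10361 TPM against 8590 to 9427 TPM in cTAL. The 9873 TPM belonged to CCD UUO replicate 2 at 30 min, whose libraries held 8769 and 10976 TPM. The second library held 8744 genes at 1 TPM or more, the fewest of the CCD UUO libraries at 30 min. The highest sum of all, 16195 TPM, belonged to the cTAL sham replicate with 361 TPM of Aqp2.

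The called members at 3 h were mostly of the large subunit, beside 7.64% of all genes called lower in cTAL and 8.04% in CCD. In cTAL 11 of 46 members with Mrpl symbols were called lower, with a median of -0.30, and 1 of 28 tested with Mrps symbols, with a median of -0.22. In CCD the counts were 7 of 46, with a median of -0.21, and 2 of 28, with a median of -0.09. In cTAL the share of Mrps symbols called was below that of all genes, and in CCD it was near that of all genes. The Mrps symbols include Mrps30 and Mrps18a, which sit in the large subunit, and Mrps36, which is not a stable part of the ribosome. Small subunit families shared with bacteria had 1 of 15 called lower in cTAL and 1 of 15 in CCD. Small subunit proteins found only in mitochondria had 0 of 10 and 1 of 10. With median-of-ratios scaling the Mrps median in CCD turned to 0.0566, while the Mrpl median was -0.0633 in CCD, and in cTAL the medians were -0.0701 (Mrps) and -0.16 (Mrpl). Sorted by origin, large subunit families shared with bacteria had 6 of 26 called lower in cTAL and 4 of 26 in CCD, and large subunit proteins found only in mitochondria, among them Mrps30 and Mrps18a, had 5 of 22 and 3 of 22. The difference between subunits or origins was not tested. Replicates of 1 group differed by a coefficient of variation whose median over members was 7.19% in CCD sham, 9.87% in CCD UUO, 10.6% in cTAL sham and 13.9% in cTAL UUO at 3 h, and the widest spread in cTAL, 66.9% in sham and 63.2% in UUO, was that of Mrps24.

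Other genes of mitochondrial translation were compared from lists. Of all genes tested at 3 h, 7.64% were called lower in cTAL and 8.04% in CCD, and no list was tested against these shares. Cytosolic ribosomal proteins, which build the ribosome outside the organelle, had 0 called of 75 in CCD, with a median change of 0.04, and 0 of 74 in cTAL at 3 h, with a median of -0.0026. The messages that mitochondrial ribosomes translate had 0 of 13 called in each of the 4 UUO comparisons, with medians of 0.11 in CCD and -0.07 in cTAL at 3 h. Proteins that assemble the mitochondrial ribosome or modify its RNA had 4 of 24 called lower and 0 higher in cTAL, with a median of -0.50, and 2 of 24 lower and 0 higher in CCD, with a median of -0.34. In cTAL these included Mrm2, a methyltransferase of the large ribosomal RNA, at -1.48 (SE 0.29), and Mtg2, a GTPase of large subunit assembly, at -0.84 (SE 0.19). Rpusd4, a pseudouridine synthase, fell there from 21.8 ± 3.55 to 10.4 ± 2.12 TPM (SD, n = 4). In CCD they were Mettl17 at -0.83 (SE 0.19) and Mtg2 at -0.57 (SE 0.14). Mettl17 was called lower in cTAL too, at -1.10 (SE 0.26).

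The mitochondrial aminoacyl-tRNA synthetases, which load tRNAs for translation in the organelle, had 2 of 17 called lower in cTAL, with a median of -0.56. In CCD 3 of 17 were called lower, with a median of -0.50. Of all genes, 7.64% were called lower in cTAL and 8.04% in CCD. The called synthetases were Ears2 (-1.57) and Vars2 (-0.93) in cTAL, and in CCD they included Cars2 (-1.33) and Rars2 (-0.65). Of 13 translation factors 2 were called lower in cTAL, the initiation factor Mtif3 (-1.13) and the release factor gene Mtrf1 (-1.08), and 0 in CCD, where Mtif3 had the smallest p at -0.53 (limma adjusted p = 0.059). A further list held proteins of the mitochondrial ribosome, of either subunit, without an Mrpl or Mrps symbol. Of its 4 genes tested in CCD 1 was called lower, the small subunit protein Ptcd3 at -0.51 (SE 0.11). In cTAL 0 of those 4 were called, and Dap3, a GTP-binding small subunit protein, had the smallest p at -0.44 (limma adjusted p = 0.076).

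Among regulators of mitochondrial biogenesis the calls went both ways. Myc, a transcription factor, rose in both segments at 3 h, by 3.17 (SE 0.39) in cTAL, from 1.03 ± 0.889 to 17.3 ± 7.96 TPM, and by 2.87 (SE 0.31) in CCD, from 1.08 ± 0.421 to 16.1 ± 7.61 TPM (SD, n = 4). Nrf1, a transcription factor of nuclear genes for mitochondria, rose in cTAL by 1.04 (SE 0.24), and Tfam, which packages mitochondrial DNA, fell there by 0.72 on the log2 scale from 108 ± 21.6 to 64.8 ± 8.18 TPM. In CCD the coactivator gene Pprc1 rose by 0.75 (SE 0.20), and Polrmt, the mitochondrial RNA polymerase, fell by 0.80 on the log2 scale. In all, 2 of 12 tested regulators were higher and 1 lower in CCD, and 2 of 9 higher and 1 lower in cTAL. Of all genes, 5% were called higher and 8.04% lower in CCD, and 4.06% higher and 7.64% lower in cTAL.

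Markers of some other cells moved with the arms at 3 h, when 5% of all genes were called higher and 8.04% lower in CCD. In cTAL the shares of all genes were 4.06% and 7.64%. In CCD 4 of 5 proximal tubule, 3 of 4 macrophage and 4 of 4 red blood cell marker identifiers were called higher, with summed levels of 59.0 to 246 TPM in sham and 176 to 947 TPM in UUO for proximal tubule, 18.5 to 49.9 and 61.5 to 92.5 TPM for macrophage, and 25.4 to 1187 and 1494 to 7895 TPM for red blood cell. In cTAL 2 of 5 proximal tubule markers were higher, with sums of 6.51 to 174 TPM in sham and 208 to 785 TPM in UUO, while 1 of 4 macrophage markers, Cd68, and the 1 tested endothelial marker, Emcn, were lower. Macrophage sums in cTAL were 117 to 297 TPM in sham and 50.1 to 153 TPM in UUO, and endothelial sums 41.5 to 183 and 16.2 to 41.3 TPM. Red blood cell markers were not called in cTAL, where their sums overlapped, at 29.8 to 3161 TPM in sham and 1834 to 11334 TPM in UUO. Stroma sums were 0.245 to 3.66 and 6.155 to 38.3 TPM in CCD, and 2.42 to 39.4 and 7.39 to 27.8 TPM in cTAL. Intercalated cell sums in CCD overlapped, at 5162 to 7360 TPM in sham and 4610 to 7441 TPM in UUO. Of the principal cell markers of CCD itself 5 of 7 were lower, with sums of 15889 to 18618 TPM in sham and 5489 to 10021 TPM in UUO. Thick ascending limb markers summed to 35728 to 61082 TPM in cTAL sham and 30467 to 35359 TPM in cTAL UUO, and 1 of 4, Cldn10, was called lower. The part of these cells in the changes of the members was not tested. Without the CCD libraries above 5000 TPM of Umod, 8 of the members were called in CCD at 3 h. Mrpl36 and Mrpl49 lost their calls there, so the 8 include a member not called in the main fit.

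The stretches of 250 bases before the annotated start are shown for the members called in both segments at 3 h, as far as RefSeq promoter entries of build GRCr8 matched their symbols, which was the case for 60 of 76 members and for all of these but Mrpl13. They are written 5′ to 3′ on the gene's strand, and capitals mark the 4 motifs searched on both strands: GCGCATGC (NRF1 core), CCGGAAG (ETS core), AAGATGGC (YY1 core) and CACGTG (E-box). The Mrpl36 stretch is chr1:31795122-31795371, minus strand, that of Mrpl18 chr1:50384702-50384951, plus strand, that of Mrpl34 chr16:18186197-18186446, plus strand and that of Mrpl57 chr15:36086207-36086456, plus strand.
Mrpl36: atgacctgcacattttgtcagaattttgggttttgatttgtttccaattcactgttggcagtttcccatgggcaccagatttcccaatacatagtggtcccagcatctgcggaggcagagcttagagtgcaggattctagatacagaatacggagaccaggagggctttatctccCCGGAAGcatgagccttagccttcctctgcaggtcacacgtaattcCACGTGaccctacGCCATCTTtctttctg
Mrpl18: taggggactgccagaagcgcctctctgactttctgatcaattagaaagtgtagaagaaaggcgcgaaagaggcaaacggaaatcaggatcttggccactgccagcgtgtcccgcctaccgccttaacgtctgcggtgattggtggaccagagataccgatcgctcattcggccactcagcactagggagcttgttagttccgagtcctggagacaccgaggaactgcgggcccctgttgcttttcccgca
Mrpl34: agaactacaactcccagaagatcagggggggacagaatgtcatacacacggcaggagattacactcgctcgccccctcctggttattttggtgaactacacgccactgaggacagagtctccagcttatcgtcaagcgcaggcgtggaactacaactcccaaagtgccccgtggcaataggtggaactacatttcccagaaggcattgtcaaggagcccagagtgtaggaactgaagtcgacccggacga
Mrpl57: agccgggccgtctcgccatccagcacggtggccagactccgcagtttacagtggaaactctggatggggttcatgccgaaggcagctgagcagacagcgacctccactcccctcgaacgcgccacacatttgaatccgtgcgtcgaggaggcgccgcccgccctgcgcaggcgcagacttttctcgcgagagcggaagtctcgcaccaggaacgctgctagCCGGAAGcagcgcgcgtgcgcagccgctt
In the Mrpl36 stretch 3 of the motifs were found, CCGGAAG beginning 75 bases before the start, CACGTG at 29 bases and the YY1 core at 16 bases on the opposite strand, written GCCATCTT. The Mrpl57 stretch held CCGGAAG at 29 bases, and no match lay in those of Mrpl18 and Mrpl34. The RefSeq start used for Mrpl36 lies inside the annotated gene, whose far end is 2325 bases upstream and overlaps Ndufs6 by 47 bases.

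Over the 62 promoter entries of the 60 matched members, CCGGAAG was found in 13 (21%), against 7.27% of all 33469 entries. GCGCATGC was found in 5 (8.06%, all entries 2.2%), AAGATGGC in 3 (4.84%, all entries 1.63%) and CACGTG in 4 (6.45%, all entries 5.59%). Of the 10 matched members called lower in cTAL at 3 h, 2 held any of the 4 motifs (20%), and of the 7 called lower in CCD also 2 (28.6%), against 30.6% of the member entries and 15.2% of all entries. All entries cover 27457 symbols and were not limited to protein-coding genes or to genes expressed in these tubules. The shares describe letters in a window and were not tested.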

How the data were processed

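The deposited values are TPM per gene, and each time has its own table of 24 libraries. Libraries were built with the Nextera XT kit from SMARTer V4 cDNA, per the labels' protocols. Tools named in the submitters' processing notes are STAR 2.7.3 and RSEM 1.3.3 with build Rnor_6.0. The protocols do not say that strand was kept, so a gene and its antisense partner could not be told apart, and depth is unknown. The 8 whole-kidney samples were not analysed here.

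For CCD, log2(TPM + 1) was averaged over both libraries of a number, and limma 3.58.1 in R 4.3.3 (data.table version 1.17.8) was fitted with a mean-variance trend on the replicates of each comparison, after a filter of 1 TPM in at least 4 of 8 replicates. Benjamini-Hochberg adjustment ran over all genes tested, with calls under 0.05. The sham comparison of segments and the difference of UUO changes between segments were fitted within arm and number, the difference between times over all 4 groups of a segment. The fit was also run on simulated data with known changes. That noise was independent for each gene, so it cannot show how calls hold where replicates shift many genes together. The members and gene lists were chosen with earlier results of these data known. Members named are Mrpl36, those called in a UUO comparison, the 4 with the smallest p in each, the 4 highest and 2 lowest tested in sham, and up to 5 called in the other tests. From other lists up to 3 called genes, or the one with the smallest p, are named; 1 such gene is not reported here.

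Deviations of samples with the same number correlated across genes with r of 0.115 to 0.229 between CCD sham and UUO at 30 min, so the numbers pair those samples by the rule that every pair exceeds 0.1, and the replicate block left 0 members called there. For the other 3 UUO comparisons at least 1 pair was below 0. In sham, CCD and cTAL of a number correlated with r of 0.271 to 0.392 at 30 min and 0.0617 to 0.21 at 3 h. By the same rule the numbers did not pair the segments at 3 h, although the fits between segments used them. Without the number in the fit, Mrpl36 kept its calls at 3 h between sham segments and between the UUO changes of the segments. Promoter sequences come from RefSeq, build GRCr8. Figures were drawn with matplotlib 3.10.9 in Python 3.11.15.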

Additional observations from a re-analysis of the deposited data

Results flagged for a closer look

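In 70 sets of 4 replicates checked, 2 held a value far from the others, and chance alone would mark about 1 in 20. Mrpl57 in cTAL UUO at 3 h stood at 254 TPM in replicate 1 and at 198, 201 and 202 TPM in the others; the difference from sham was still called without that replicate. Mrpl20 in cTAL sham at 3 h stood at 249 TPM in replicate 1, the replicate with 361 TPM of Aqp2, and at 214, 215 and 216 TPM in the others; its call was lost without that replicate.

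In tests of a difference between 2 changes, Mrpl36 differed between segments at 3 h by 1.17 on the log2 scale, CCD minus cTAL. In cTAL the change at 3 h minus that at 30 min was -1.64 for Mrpl36, -0.65 for Mrps11 and -0.95 for Mrpl2.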

How the results depend on the processing

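The members called in CCD at 3 h fell from 9 to 3 with median-of-ratios scaling, 3 with the replicate block, 4 with CCD library 1 alone and 5 with library 2 alone, and ranged from 3 to 11 when 1 replicate was left out. In cTAL at 3 h they fell from 12 to 5 with median-of-ratios scaling and 6 with the replicate block, with 5 to 15 when 1 replicate was left out. Between sham segments 24 members at 30 min became 43 with median-of-ratios scaling and 47 with quantile normalization, and 20 at 3 h became 45 and 43, with 9 to 16 when a number was left out. At 30 min, CCD library 1 alone gave 1 member in CCD and 1 in the difference between segments, where leaving out a number gave 0 to 3. Between times, CCD had 2 members with UUO number 2 at 30 min taken from library 1 alone and 0 to 1 without 1 replicate; cTAL had 7 with TPM rescaled without mitochondrially encoded genes, 1 with the replicate block and 1 to 5 without 1 replicate. The median member change in CCD at 30 min turned from -0.03 to 0.34 with median-of-ratios scaling, 0.17 with quantile normalization and 0.0371 with TPM rescaled without mitochondrially encoded genes, and ranged from -0.0600 to 0.0307 without 1 replicate, the latter without UUO replicate 4. At 3 h it moved to -0.0305 and -0.12 in CCD with median-of-ratios and quantile scaling, and to -0.11 in cTAL with median-of-ratios scaling. Median-of-ratios scaling moved the median of all genes tested to -0.02 from -0.31 in CCD at 30 min, and to -0.01 from -0.14 in CCD and 0.01 from -0.12 in cTAL at 3 h. Mrpl36 in cTAL at 30 min turned to -0.0796 when both identifiers were added, which was chosen after seeing the data. The causes of the other changes were not tested. In cTAL at 3 h Mrpl36 kept its call in all alternatives, from -1.63 to -1.41 over the planned ones. The replicate block changed no call at 30 min. For the UUO comparisons other than CCD at 30 min, the samples share only a number. TPM without depth limit what can be said of members near 1 TPM.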

Other observations

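Mrps24, Mrps30 and Mrps34 varied together between replicates of 1 group; these 3 were chosen after their values were seen. In cTAL sham at 30 min replicates 1 to 4 had 8.12, 9.13, 25.5 and 28.1 TPM of Mrps24, 13.2, 12.0 and then 30.9 and 34.6 TPM of Mrps30, and 18.1, 20.3, 49.3 and 48.6 TPM of Mrps34. In cTAL UUO at 30 min they had 6.74, 21.3, 6.34 and 83.0 TPM of Mrps24, 7.96, 25.7, 10.3 and 54.5 TPM of Mrps30, and 11.6, 35.4, 12.9 and 79.2 TPM of Mrps34. At 3 h cTAL sham replicate 4 was lowest in all 3 genes, at 7.05 TPM of Mrps24, 14.2 TPM of Mrps30 and 23.1 TPM of Mrps34, where replicate 1 had 83.1, 91.8 and 126 TPM. Mrpl36 did not share this spread, with 595 TPM in that replicate 4 and 587 TPM in replicate 1. None of the 3 genes was called after UUO in either segment at either time, except Mrps24 in CCD at 30 min with library 1 alone, and the cause of the shared spread was not tested.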
